A study of Homo sapiens with 5 samples.

Results

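Promoters with very high GC content were taken as those H3K27ac peaks whose center lies within 1 kb of a protein-coding transcription start site (TSS) and whose sequence within 500 bp of the center is at least 70% G or C. The start sites were those of protein-coding transcripts in GENCODE release 44. Peaks at divergent promoters, where the minus-strand TSS of one gene lies upstream of the plus-strand TSS of another and both are within 1 kb of the center, were left out. This left 2570 of the 20087 peaks, which are 12.8% of the table. They are 23.7% of its 10846 promoter peaks on chromosomes 1 to 22 and X, divergent ones included. They were nearest to 2528 genes. Among the H3K27ac peaks, the rule uses sequence and position and no signal values. Promoters without such a peak could not be members, so the levels below are those of promoters already called as peaks.

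H3K27ac, the acetylation of histone H3 lysine 27, was profiled by ChIP-seq in a derivative of the colorectal carcinoma line HCT116 that expresses osTIR1 from a CMV promoter and carries the RAD21-mAC fusion. No auxin is named in the labels. All cells, the controls included, received 0.1% DMSO for 6 h, and 2 libraries were made after IFN-β at 1000 unit/ml for 60 min and 2 from control cells without it. A further library is the input. The control libraries are labelled 0 min, so IFN-β and an added 60 min of culture cannot be told apart, and nothing in the labels says whether the 2 libraries of a group came from separate cultures. The deposited values are means over the 2 libraries of a group. No SD, interval between replicates or test between libraries could therefore be computed, and every comparison below is a description of group means. Of 8 markers of colon epithelium, 7 had a promoter peak, with control signals between 4.48 and 7.10, and the highest, EPCAM, is itself a high-GC promoter with a GC content of 73.4%. KRT8 and KRT18 had identical signals and GC content (6.52 in control, 5.88 with IFN-β, 61.4%), so these 2 markers appear to share a peak. VIL1 had no promoter peak. Of the markers of other cell types, 0 of 4 for blood and 0 of 3 for endothelium had a promoter peak, while 1 of 3 for stroma did. That gene, TWIST1, is a high-GC promoter as well, with a log2 signal of 3.54 in control and 2.49 with IFN-β.

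Most vertebrate promoters of broadly used genes lie in CpG islands, stretches in which CpG dinucleotides have escaped the loss that methylated cytosines undergo elsewhere. Such islands are usually unmethylated, are bound by CXXC-domain proteins and by GC-box factors of the SP and KLF families, and start transcription from many positions and often without a TATA box. H3K27ac at a promoter is deposited by the acetyltransferases p300 and CBP, and marks promoters in use. IFN-β acts through its receptor and the JAK kinases on a complex of transcription factors that binds the interferon-sensitive response element (ISRE), an A-rich sequence.

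To show what such sequence looks like, the 120 bases before the TSS are given for 7 of the genes named below, in the direction of the gene, with GC boxes (GGGCGG on either strand) in capitals. All are from GRCh38, and none overlaps an annotated exon. PHF10 (chr6:169724501-169724620, minus strand) is among the 3 promoters with the highest GC content, and SOCS6 (chr18:70288925-70289044, plus) is among those with the highest control signal. The next 3 were picked among members with a control signal of 5 or more. SNX30 (chr9:112750640-112750759, plus) is among the least reduced of these with IFN-β. CEMIP2 (chr9:71768514-71768633, minus) and LZTS3 (chr20:3173550-3173669, minus) are among the most reduced of these. SOCS1 (chr16:11256205-11256324, minus) and TDRD7 (chr9:97411976-97412095, plus) are interferon-stimulated genes.
PHF10: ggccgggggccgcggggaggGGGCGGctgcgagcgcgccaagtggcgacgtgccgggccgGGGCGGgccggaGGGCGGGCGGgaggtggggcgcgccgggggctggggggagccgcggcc
SOCS6: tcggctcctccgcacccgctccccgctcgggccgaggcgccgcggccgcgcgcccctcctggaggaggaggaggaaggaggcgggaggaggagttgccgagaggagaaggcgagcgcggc
SNX30: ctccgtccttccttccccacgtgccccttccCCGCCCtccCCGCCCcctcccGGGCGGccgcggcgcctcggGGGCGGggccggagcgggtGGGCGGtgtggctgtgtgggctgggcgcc
CEMIP2: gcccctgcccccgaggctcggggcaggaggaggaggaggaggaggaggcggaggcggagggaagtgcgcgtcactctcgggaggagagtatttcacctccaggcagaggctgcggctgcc
LZTS3: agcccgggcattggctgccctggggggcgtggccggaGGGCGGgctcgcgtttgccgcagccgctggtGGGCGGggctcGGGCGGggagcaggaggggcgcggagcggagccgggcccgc
SOCS1: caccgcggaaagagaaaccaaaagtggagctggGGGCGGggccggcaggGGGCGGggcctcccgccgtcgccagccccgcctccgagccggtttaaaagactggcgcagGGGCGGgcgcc
TDRD7: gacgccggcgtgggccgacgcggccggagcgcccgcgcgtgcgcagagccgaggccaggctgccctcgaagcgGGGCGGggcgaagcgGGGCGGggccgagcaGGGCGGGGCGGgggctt

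These windows hold between 70.8% (CEMIP2) and 89.2% (PHF10) G or C. SNX30 has 5 GC boxes in its 120 bases, PHF10 and TDRD7 have 4, and SOCS6 and CEMIP2 have 0. The letters TATAAA occur in 0 of the 7, and CCAAT occurs once, in LZTS3 on the strand opposite to the gene. Over the wider stretch within 500 bp of the peak center, SNX30, CEMIP2 and LZTS3 each had 8 GC boxes.

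H3K27ac signal at high-GC promoters was above that of the whole table in both groups. In control cells the median log2 signal was 5.78 (54.8 mean normalized reads per library), with quartiles of 4.90 and 6.45. With IFN-β it was 4.97 (31.3 reads), with quartiles of 4.11 and 5.61. Over all peaks the medians were 5.04 and 4.39. The members ranged from -0.17, the lowest control value in the table, to 8.26, and 1873 of them (72.9%) had a control signal of 5 or more, equal to 32 reads. For 10 members both groups were at the lowest value of the table. Promoter peaks of 60 to 70% GC, of which there were 4145, had medians of 5.55 in control and 4.79 with IFN-β, and the 2889 promoter peaks under 60% GC had 5.19 and 4.54. The interquartile ranges of the 3 classes overlapped. The 201 divergent promoters of the same GC content, which were left out, had medians of 6.08 and 5.30.

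**Figure D1:**
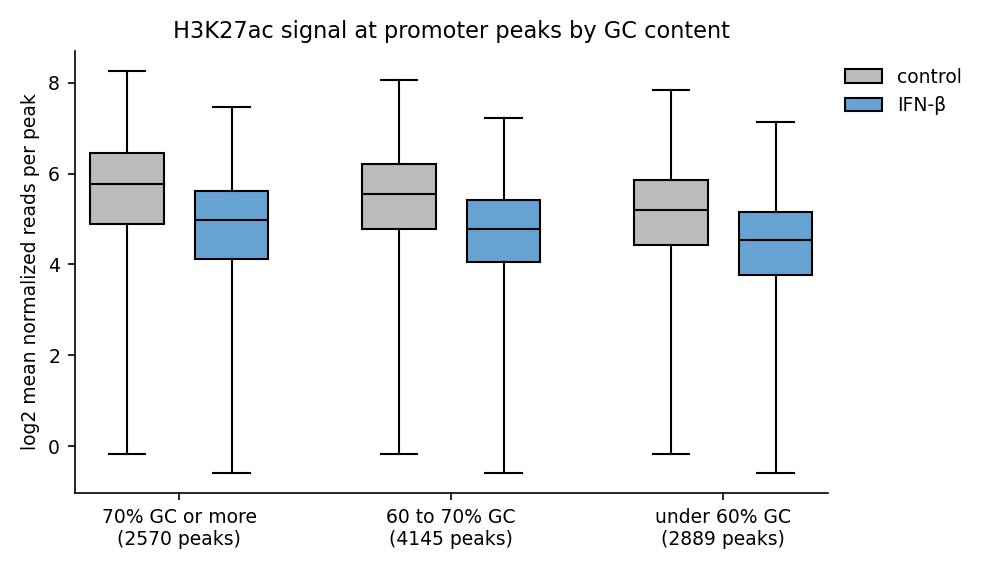
Log2 of the mean normalized reads per peak at non-divergent promoter peaks in control (gray) and IFN-β (blue), by GC content within 500 bp of the center, with boxes for the quartiles, a line for the median and whiskers for the lowest and highest peak. The median at 70% GC or more is 5.78 in control and 4.97 with IFN-β, above both other classes, and the boxes of all classes overlap.

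The median difference between IFN-β and control was -0.82 on the log2 scale at high-GC promoters, a ratio of 0.566, with quartiles of -0.98 and -0.64. Over all peaks the median was -0.69, a ratio of 0.620, which is also below 0. Summed over all peaks, the mean normalized reads per library were 876825 in control and 540427 with IFN-β, a ratio of 0.616. Depth per library is not in the values used here, and the part of depth or ChIP yield in this table-wide difference was not tested. At 60 to 70% GC the median was -0.76 and under 60% it was -0.68. Summed reads with IFN-β were 0.566 of control at the members, 0.586 at 60 to 70% GC and 0.625 under 60%. The members held 18.6% of the reads of all peaks in control and 17.1% with IFN-β, while promoter peaks under 60% GC held 14.1% and 14.3%.

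A signal at least 2-fold lower with IFN-β (a difference of -1 or less) was found at 615 members (23.9%), compared with 18.1% of all peaks, 19.9% of promoter peaks at 60 to 70% GC and 14.5% of those under 60%. A higher signal with IFN-β (a difference above 0) was found at 33 members (1.28%), compared with 5.93% of all peaks. It was found at 1.91% of promoter peaks at 60 to 70% GC and 5.12% of those under 60%. At divergent promoters of 70% GC or more it was 0.995%. Most of the 33 had a control signal below 4. There the share was 11.0% at the members, 11.3% at 60 to 70% GC and 19.2% under 60%. Measured from the median of the table, 83 members (3.23%) were at least 0.5 above it, compared with 11.1% of all peaks. At least 0.5 below it were 210 members (8.17%), close to the 7.88% of all peaks. Compared with all peaks, the share of members far above the median was thus lower, while the share far below it was similar. At promoter peaks of 60 to 70% GC the 2 shares were 4.37% above and 6.90% below. Under 60% GC they were 9.38% and 5.75%, and at divergent promoters of 70% GC or more 2.49% and 3.98%. The share far below was thus higher at the members than in these 3 promoter sets. Without replicate values, none of these shares could be set against the spread between libraries.

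**Figure D2:**
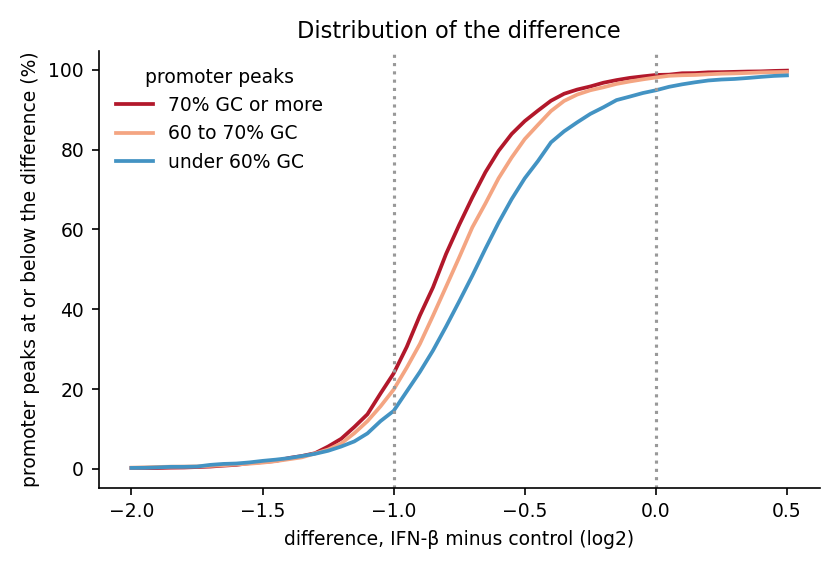
Cumulative share (%) of non-divergent promoter peaks at or below each difference in log2 signal, IFN-β minus control, for 3 classes of GC content, with dotted lines at -1 and 0. At -1 the curves stand at 23.9% for 70% GC or more, 19.9% for 60 to 70% and 14.5% for under 60%.

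Signal strength was a property in which the classes differ and which went with the difference, so the classes were also set side by side within bins of control signal. At a control signal from 5 to 6 the median difference was -0.80 at 809 high-GC promoters, -0.75 at 60 to 70% GC and -0.70 under 60%. From 6 to 7 it was -0.84 at 849 high-GC promoters, -0.82 at 60 to 70% GC and -0.76 under 60%. At 7 or more it was -0.88 at 215 high-GC promoters, -0.85 at 60 to 70% GC, and -0.75 at the 44 promoters under 60%. In all 5 bins the high-GC promoters had the lowest median, and the distances between the medians were smaller than the interquartile ranges. The share at least 2-fold lower was highest at the high-GC promoters in each bin below 7. At 7 or more it was 20.9%, compared with 21.2% at 60 to 70% GC and 9.09% under 60%. The spread narrowed with signal, from an interquartile range of 0.728 below a control signal of 4 to 0.180 at 7 or more. The control value enters both the bin and the difference. Binned by the mean signal over all H3K27ac libraries instead, the high-GC promoters again had the lowest median in each bin, for example -0.81 from 5 to 6, compared with -0.76 at 60 to 70% GC and -0.71 under 60%.

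**Figure D3:**
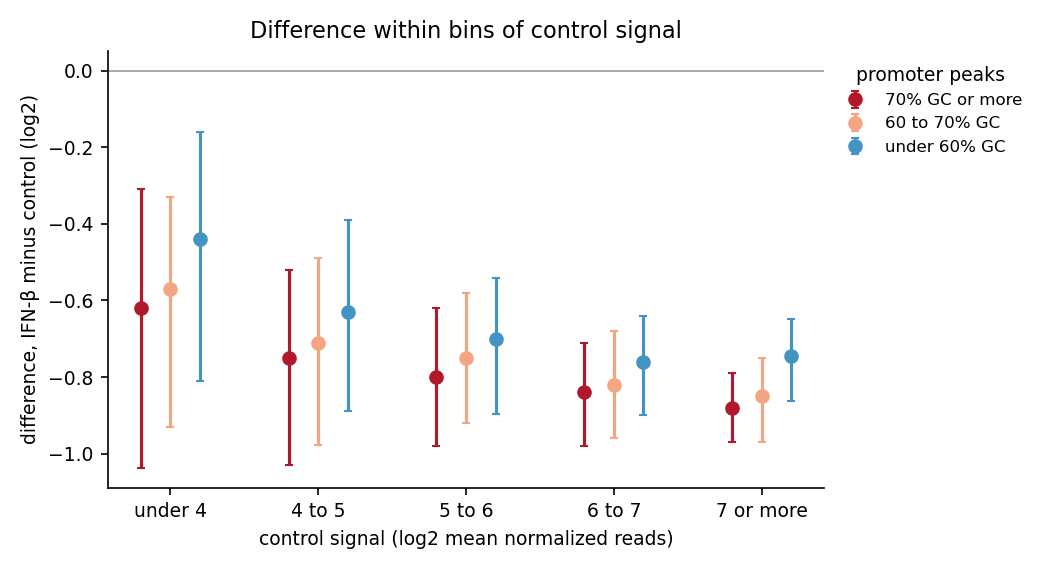
Median difference in log2 signal, IFN-β minus control, with bars for the quartiles, in 5 bins of control signal for 3 classes of promoter GC content. The red points (70% GC or more) are lowest in each bin, from -0.62 below 4 to -0.88 at 7 or more, and their bars overlap those of the other classes.

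Within the members, GC content reached 85.5%, with a median of 73.5%, and 102 promoters had 80% or more, out of 105 such peaks on these chromosomes. Neither group's level followed it. The median control signal was 5.82 at 70 to 72% GC and 5.75 at 78% or more, with values between 5.71 and 5.84 in the bins between. Spearman's rank correlation across the 2570 promoters was 0.00788 between GC content and control signal and -0.0461 between GC content and the difference. These points all come from the same libraries. The median difference was -0.81 in each bin from 70% to 76%, -0.83 at 76 to 78% and -0.88 in the 266 promoters at 78% or more, 28.6% of which were at least 2-fold lower, compared with 21.4% at 70 to 72%.

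The rule did not use the density of CpG, but the number of CpG depends in part on GC content, which the rule set in the same window. The ratio of observed to expected CpG had a median of 0.867 at the members, compared with 0.783 at 60 to 70% GC and 0.7 under 60%, and it was above 0.6, a usual limit for CpG islands, at 2542 of the 2570 (98.9%). A median of 116 CpG lay within 500 bp of the center. Control signal was higher where this ratio was higher, with a median of 5.47 at 132 promoters with a ratio under 0.7 and 5.98 at 151 promoters with a ratio of 1 or more. In these bins the share at least 2-fold lower with IFN-β was 13.6% and 33.1%, while in the 3 bins between it was 24.6%, 24.2% and 23.1%, with no rise. Across all members the rank correlation was 0.136 between the ratio and control signal and -0.0463 between the ratio and the difference, both weak.

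The centers of the peaks lay mostly on the transcribed side of the TSS. At the members 67.8% were downstream, with a median position 115 bp into the gene, compared with 62.3% and 75 bp at 60 to 70% GC and with 55.1% and 37 bp under 60%. The 160 promoters centered 250 to 500 bp upstream had the highest median control signal, 6.18, and the 1143 centered up to 250 bp downstream had the lowest, 5.66. Median differences over these positions ranged between -0.83 and -0.76. Peaks wider than 1000 bp made up 5.14% of the members, compared with 9.55% at 60 to 70% GC. At the GC limit the levels just inside and just outside were close. Within 0.5 percentage points below 70% GC, just outside, 227 promoters had medians of 5.80 in control, 5.09 with IFN-β and -0.75 for the difference. Within 0.5 points above it, just inside, 188 promoters had 5.82, 5.04 and -0.81. There were 9 members centered 900 to 1000 bp from a TSS, with a median control signal of 6.09, and 8 peaks of the same GC content within the next 100 bp, with 4.21.

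A GC box was present within 500 bp of the center in 2568 of the 2570 members, with a median of 8 per promoter, compared with 97.6% of promoter peaks at 60 to 70% GC and 76.9% of those under 60%. The members were chosen for GC content in this same window, so motif frequencies depend in part on the rule. What composition alone would give was not computed, here or for the ISRE core below. The AT-rich letters TATAAA and CCAAT were less frequent at the members. TATAAA was found in 3.46% of members and in 15.0% of all promoter peaks, and CCAAT in 41.8% and 58.0%. The ETS letters CCGGAAG were found in 21.8% and 30.7%, the NRF1 letters TGCGCA in 21.8% and 23.9%, and the E-box CACGTG in 20.2% and 21.1%. The AP-1 letters TGANTCA occurred in 6.96% of members and 13.5% of all promoter peaks, and the CRE letters TGACGTCA in 3.15% and 4.11%. All were searched on both strands within 500 bp of the center, and GC boxes may overlap each other. Members with any of these motifs had median differences between -0.85 and -0.78, near that of all members.

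The ISRE core GAAANNGAAA was found in 91 members (3.54%), compared with 8.62% of all promoter peaks and 15.0% of those under 60% GC. The 91 had a median log2 signal of 6.05 in control and 5.22 with IFN-β. Their median difference was -0.73, compared with -0.82 at the 2479 without the core. A difference above 0 was found at 3 of the 91 and at 30 of the 2479. The share was 1.28% of all members and 5.93% of all peaks. Of the interferon-stimulated genes among the members, 3 contain the ISRE core. It is printed here with 10 bases on either side, in the direction of the gene and with the core in capitals, from chr16:11256298-11256327 for SOCS1, chr17:80261034-80261063 for RNF213 and chr9:97412127-97412156 for TDRD7. The cores lie 109 bp upstream of the TSS in SOCS1, and 179 bp and 46 bp downstream of it in RNF213 and TDRD7.
SOCS1: cgccaccgcgGAAAGAGAAAccaaaagtgg
RNF213: cggctccaagTTTCGGTTTCgccgccgggg
TDRD7: gtggtgcgggGAAACCGAAAgtgggcggcg

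Interferon-stimulated genes were few among the high-GC promoters. Of 77 promoter peaks nearest to genes of this list, divergent ones included, 6 (7.79%) were members, compared with 23.7% of all promoter peaks. The median GC content of the 77 was 59.2%. The 69 peaks under 70% GC had a median log2 signal of 4.96 in control and 5.52 with IFN-β and a median difference of 0.26, and 46 of them were above 0 (66.7%), beside 5.93% of all peaks. The 6 members had medians of 5.66 and 5.08 and a median difference of -0.52, and 2 of them were above 0, beside 1.28% of all members. The 2 sets were not tested against each other.

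TDRD7, which encodes a Tudor-domain protein with antiviral activity, had the highest difference of all 2570 members. Its peak (chr9:97411815-97412815) is centered 219 bp downstream of the TSS in an intron, and its log2 signal was 2.81 in control and 4.36 with IFN-β. This is 7.01 and 20.5 mean normalized reads, a difference of 1.55 and a ratio of 2.93. IRF1, a transcription factor that interferons are known to induce, had 5.67 in control and 5.83 with IFN-β at its peak centered in an exon of its UTR (chr5:132490081-132491081), a difference of 0.16. RNF213, a large ubiquitin ligase, had 6.31 and 5.86, a difference of -0.45. SOCS1, the feedback inhibitor of JAK kinases, had 5.66 and 5.07, a difference of -0.59, at a peak centered 14 bp upstream of its start and inside an intron of RMI2. IRF2, a relative of IRF1 that binds the same sites, had 5.85 and 5.08, a difference of -0.77, and SHISA5, a membrane protein of the endoplasmic reticulum, had 4.68 and 3.97, a difference of -0.71. TDRD7 and IRF1 lay above the line of equal signal, RNF213 and SOCS1 were less reduced than the median of all peaks, and SHISA5 and IRF2 lay slightly below that median.

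**Figure D4:**
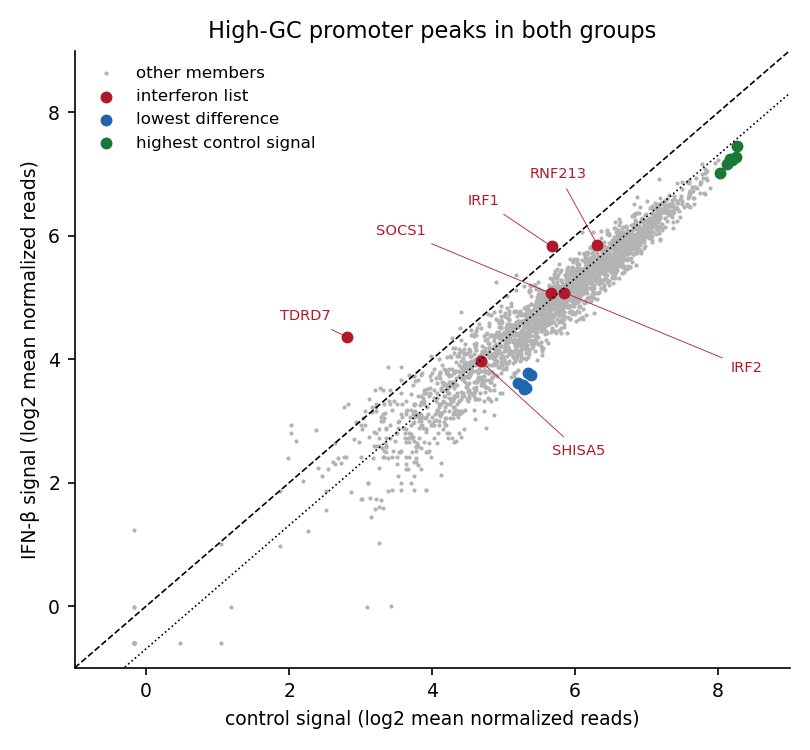
Log2 mean normalized reads of the 2570 high-GC promoter peaks in control and with IFN-β, with a dashed line at equal signal and a dotted line at the median difference of all 20087 peaks (-0.69). TDRD7 and IRF1 lie above the dashed line, and the 6 promoters with the highest control signal lie just below the dotted line. The 6 most reduced promoters among those with a control signal of 5 or more (blue) lie well under it. Some gray points of lower control signal are more reduced.

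The 6 strongest promoters in control cells had log2 signals above 8. ACTG1, which encodes gamma-actin, had the highest control signal of the members, 8.26, and 7.46 with IFN-β (chr17:81514049-81515049, centered in an exon of its UTR). RHOF, a small GTPase that acts on the actin cytoskeleton, had 8.25 and 7.28, and ARHGDIA, an inhibitor of small GTPases, had 8.16 and 7.25. HMGA2, an architectural DNA-binding protein, had 8.2 and 7.23. MFSD3, a transporter-like membrane protein, had 8.13 and 7.16, and SOCS6, an adaptor of ubiquitin ligases, had 8.02 and 7.02. The differences of these 6 ranged from -1 at SOCS6 to -0.80 at ACTG1. All 6 were thus lower with IFN-β by more than the median of the table, and close to the median of -0.88 for members with a control signal of 7 or more.

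Among the 1873 members with a control signal of 5 or more, 2 (0.107%) had a higher signal with IFN-β. At a control signal from 5 to 6 this share was 0.247% at the members and 1.43% of all peaks. It was 0.452% at 60 to 70% GC and 1.29% under 60%. From 6 to 7 it was 0% at the members and 0.287% of all peaks. SAMD4A, an RNA-binding repressor of translation, had 5.17 in control and 5.37 with IFN-β, and IRF1 was the other. The SAMD4A peak (chr14:54565714-54566714) is centered 914 bp upstream of the nearest start of a protein-coding transcript, inside an annotated exon of SAMD4A. The next were CRIM1, a transmembrane protein that binds BMPs (5.05 and 5.02), MAFF, a small MAF transcription factor (6.10 and 6.06), CSRNP1, a nuclear protein of the immediate-early response (5.17 and 5.13), and SNX30, a sorting nexin (5.29 and 5.18). These 4 had differences between -0.11 and -0.03, so their group means were nearly equal. The ISRE core was found in 0 of these 6 promoters. SAMD4A, CRIM1, CSRNP1 and SNX30 had control signals between 5.05 and 5.29, near the limit of 5 that was set for naming.

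The lowest difference among well-covered members was at CEMIP2, a cell-surface hyaluronidase, with 5.32 in control and 3.53 with IFN-β (a difference of -1.79). SLC43A2, a transporter of neutral amino acids, had 5.27 and 3.58 (-1.69), PIP5K1C, a kinase that makes PIP2, had 5.39 and 3.74 (-1.65), LZTS3 had 5.20 and 3.62 (-1.58), and ING2, a reader of methylated histone H3, had 5.34 and 3.77 (-1.57). These 5 had control signals between 5.20 and 5.39, near the limit of 5 that was set for naming, where the spread of the difference was wider than at stronger promoters. The remaining 31 members with a higher signal in IFN-β had control signals under 5, and 27 of the 33 were under 4. The second highest difference, 1.40, was at FBXO25, which was at the lowest control value of the table. FBXO25 was chosen after its value was seen.

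The 3 promoters with the highest GC content did not share a level. AGO2, the slicing Argonaute of RNA interference, had 85.5% GC, 7.60 in control and 6.69 with IFN-β. PHF10, a subunit of the PBAF form of the BAF remodelling complex, had 84.1% GC, 5.76 and 5.04. CACNA1H, a T-type calcium channel, had 83.9% GC, 4.73 and 3.16. The differences were -0.91, -0.72 and -1.57, so these 3 lay on both sides of the median of all members.

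The classes of genes with such promoters were described next, with each peak given to the gene of its nearest TSS. They were drawn from gene symbols, so the class names are approximate. The RNA processing class also holds translation factors such as EIF5 and EIF4G1. The protein kinase class also holds genes that do not encode protein kinases, such as CDK2AP1, CDK5R1 and PIK3R2. Each share below is of all promoter peaks of the class, divergent ones included, although these cannot be members. KLF and SP factors had the largest share of the 17 classes, and cytosolic ribosomal proteins had the smallest. KLF and SP factors, which themselves bind GC boxes, had 11 of 19 promoter peaks among the members (57.9%). Genes of Wnt, Notch, TGF-beta, Hedgehog and FGF signalling had 45 of 80 (56.2%). Protein kinases had 67 of 170 (39.4%), small GTPases and their regulators 90 of 240 (37.5%), chromatin factors 67 of 179 (37.4%), axon guidance and adhesion genes 30 of 81 (37.0%) and ion channels 16 of 44 (36.4%). Developmental transcription factors had 30 of 97 (30.9%), phosphatases and their subunits 38 promoter peaks (30.9%) and ubiquitin ligases and adaptors 80 of 264 (30.3%). Solute carriers, with 48 of 197 (24.4%), were close to the 23.7% of all promoter peaks.

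Below it were zinc finger and ZBTB genes with 60 of 384 (15.6%), cyclins and other cell-cycle regulators with 15 of 97 (15.5%) and RNA processing factors with 19 of 199 (9.55%). Mitochondrial ribosomal and respiratory chain proteins had 4 of 149 (2.68%), which were MRPS34, MRPS6, MRPS26 and MRPL41. Of these 149 peaks 111 were not divergent, and of the 199 of RNA processing factors 164, compared with 226 of the 240 of small GTPases and their regulators. Leaving out divergent peaks thus lowered the shares of the classes unequally. The 77 promoter peaks of cytosolic ribosomal proteins included 0 members, and their median GC content was 57.1%. The 17 classes together took in 621 members, and the other 1949 belonged to genes of no class, with a median difference of -0.82.

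**Figure D5:**
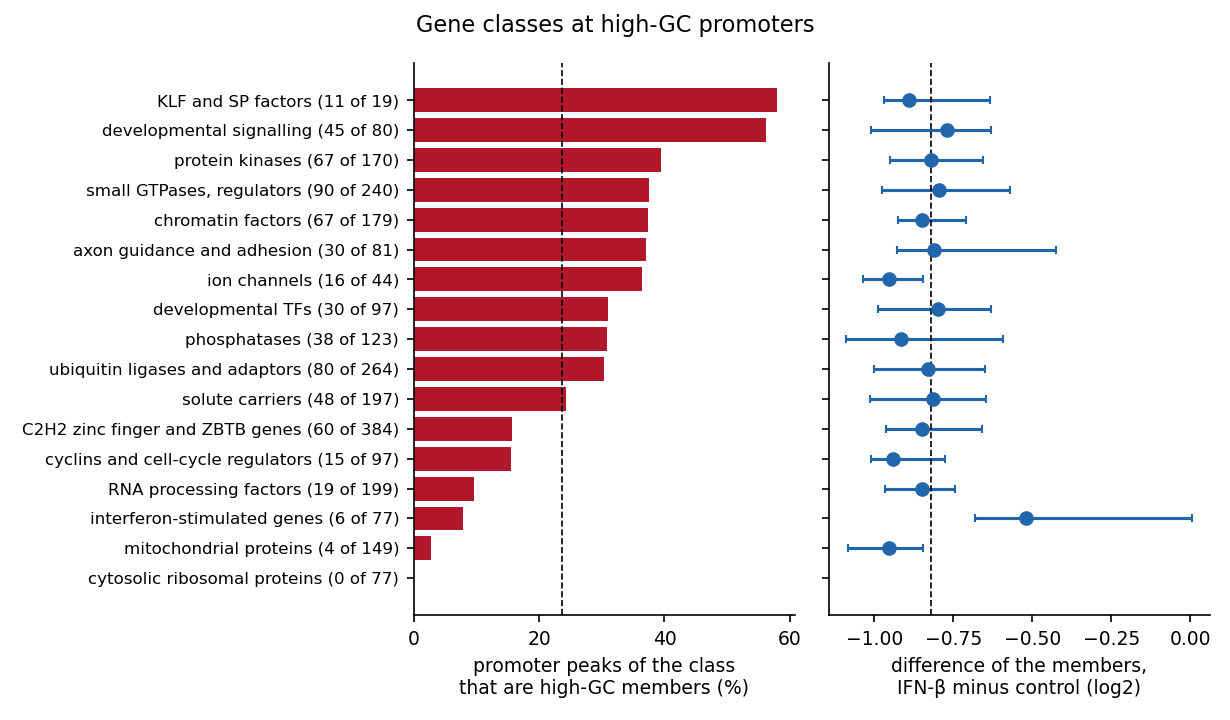
Left, share (%) of the promoter peaks of each gene class, divergent ones included, that are high-GC members. Counts stand beside the names, and a dashed line marks the 23.7% of all promoter peaks. Right, median and quartiles of the difference in log2 signal, IFN-β minus control, over the members of each class, with a dashed line at the median of all members (-0.82), where the interferon-stimulated genes have the highest median, -0.52.

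Median control signals of the classes ranged from 4.76 to 6.75. The RNA processing factors, translation factors included, had the highest median control signal, 6.75, and 5.78 with IFN-β. HNRNPU, a nuclear RNA-binding protein, led them with 7.48 and 6.6. Cell-cycle regulators had medians of 6.33 and 5.41, led by E2F3, a transcription factor of the G1/S transition, with 7.71 and 6.77. Chromatin factors had 6.20 and 5.45, with HMGA2 first. At the other end, ion channels had 4.76 and 3.86, although their strongest member, the mechanosensitive channel PIEZO1, had 7.66 and 6.79. Axon guidance and adhesion genes had 4.84 and 4.24, led by SEMA4C with 7.26 and 6.39, and developmental signalling genes had 5.33 and 4.38, led by the ubiquitin ligase SMURF2 with 7.84 and 6.91.

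The difference had a median between -0.96 and -0.77 in the 15 classes other than the interferon-stimulated genes that had members, beside -0.82 for all members and -0.69 for all peaks. Phosphatases had a median of -0.92, with 14 of 38 at least 2-fold lower (36.8%), beside 23.9% of all members and 18.1% of all peaks. PPP4R3A, a subunit of protein phosphatase 4, was their strongest member, with 7.58 in control and 6.49 with IFN-β. Ion channels had 5 of 16 at least 2-fold lower (31.2%) and cell-cycle regulators 5 of 15 (33.3%). Chromatin factors had 10 of 67 (14.9%), and zinc finger and ZBTB genes 11 of 60 (18.3%), where ZBTB2 was strongest with 7.35 and 6.52. KLF and SP factors had 1 of 11, KLF2, with 5.24 and a difference of -1.23, and SP3 was strongest with 7.32 and 6.36. These classes hold between 11 and 67 promoters, and each share carries the counting limits of such numbers.

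Axon guidance and adhesion genes had 4 of 30 at least 2-fold lower (13.3%) and RNA processing factors 3 of 19 (15.8%), both below the share of all members, and mitochondrial proteins had 2 of 4. Of the remaining classes, solute carriers had 13 of 48 at least 2-fold lower (27.1%), with the lactate exporter SLC16A3 strongest at 7.60 and 6.85. Ubiquitin ligases and adaptors had 21 of 80 (26.2%), with SOCS6 strongest, and small GTPases and their regulators 21 of 90 (23.3%), with RHOF strongest. Protein kinases had 16 of 67 (23.9%), with DYRK1A strongest at 7.33 and 6.48. Developmental signalling genes had 12 of 45 (26.7%) and developmental transcription factors 8 of 30 (26.7%), where SOX12 had 7.29 and 6.24. Within the signalling class the receptor NOTCH1 (6.81 and 6.03), the scaffold AXIN2 (7.43 and 6.24) and the ligand WNT3 (6.67 and 6.14) had differences of -0.78, -1.19 and -0.53. These 3 were chosen after their values were seen.

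There were 42 genes with 2 member peaks each. The stronger and the weaker peak differed in control signal by a median of 1.00 and in the difference by a median of 0.355, and the weaker peak was the more reduced one at 19 of the 42. RHOF, for example, had a second peak with 6.43 in control and 5.82 with IFN-β, a difference of -0.61 beside -0.97 at the stronger one. Such pairs are not independent of each other.

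By chromosome, the share of promoter peaks that were members was highest on chromosomes 21 (43 of 99, 43.4%), 18 (35.5%) and 22 (34.9%) and lowest on X (52 of 336, 15.5%). On chromosome 19 it was 19.2%, or 157 of 816. The median control signal of the members lay between 5.49 and 6.02 on the 22 autosomes and was 4.76 on X. The median difference lay between -0.88 and -0.76 over all 23 chromosomes. On each of the 23 it was lower than that of the other non-divergent promoter peaks of the same chromosome.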

How the data were processed

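H3K27ac ChIP-seq of HCT116 CMV-osTIR1 RAD21-mAC cells was analysed from 1 table of 20087 peaks. Per the methods of the study and the submitters' processing notes, the authors trimmed reads with fastp, aligned them to GRCh38 with Bowtie2, called peaks with MACS2 against the input, and merged and counted peaks with DiffBind and DESeq2. The deposited values are on a log2 scale: the authors averaged the library-size normalized reads of each peak over a group's libraries. Values per library were not analysed here, so no SD, test or depth per library could be computed. Each value is the authors' group mean. Columns of the authors' own comparison (fold change, p-value and FDR) were not used. A low log2 value rests on few reads, and its difference is the least precise.

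Start sites were taken from GENCODE release 44 and sequence from GRCh38, 1-based. GC content, CpG ratio and motifs were counted within 500 bp of the peak center with Python 3.11.15, pandas 2.3.3, numpy 2.4.6 and pysam 0.24.0, and the steps were tested on simulated data. Each peak took the gene of its nearest TSS. The difference is IFN-β minus control. The members, gene classes and lists were chosen with earlier results of these data known. Classes follow gene symbols, and some patterns were trimmed after a first look (the CDC42 family from the cell cycle, SLC2A4RG from solute carriers, RALY and ARL6IP4 from GTPases). Named genes were the 6 members with the highest control signal, the 6 highest and 6 lowest differences at a control signal of 5 or more, the 3 highest GC contents, all members of the interferon list, and the strongest member of each class with 5 or more. Some of the genes and sequences that this rule takes in are not reported here. Alternatives changed the GC threshold, window, TSS distance and set, divergent rule and lowest signal.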

Additional observations from a re-analysis of the deposited data

How the results depend on the processing

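The median difference of the members stayed between -0.83 and -0.81 under all alternatives. Of 56 values, 46 stayed within the limit set for them, with 0 reversed. For counts the limit was a fixed ratio to the main value. For medians it was a binomial interval over the member peaks. Peaks are not replicates, so that interval does not measure the spread between libraries. With GC counted within 250 bp of the center, there were 4179 members, with medians of 5.68 in control and 4.89 with IFN-β, 986 at least 2-fold lower and 51 higher. With a mean log2 signal of 5 or more required, there were 1642 members, with medians of 6.25 and 5.44, 341 at least 2-fold lower and 3 higher. The signal limit keeps only the stronger members, so lower counts and higher medians follow from the limit itself. The cause of the shifts with the narrower window was not tested. With the signal limit the share at least 2-fold lower was 20.8% and the share higher was 0.183%, both the lowest of all alternatives. Measured from the median of peaks with a mean signal of 5 or more (-0.74), 107 members were at least 0.5 above and 155 at least 0.5 below, instead of 83 and 210. Leaving out the 10 members at the lowest value of both groups was chosen after seeing the data. No paired analysis was possible because the table holds group means only, and for the same reason no replicate could be left out. Depth limits low values most.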

Other observations

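The lowest differences of all members were at promoters with low signal. NBEA, a neuronal scaffold protein, had a log2 signal of 3.43 in control and 0.01 with IFN-β, a difference of -3.42, and CITED4, a transcriptional coactivator, had 3.09 and -0.01, a difference of -3.10. Both were chosen after their values were seen, and neither has a replicate value.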
